A study of Mus musculus with 6 samples.

Results

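Ribosome biogenesis factors are the proteins that transcribe, modify, cut and fold ribosomal RNA and load ribosomal proteins onto it. The set described here was chosen as a list of gene symbols, with earlier results of these data known. Of its 60 genes, 58 had a row among the 11779 genes of the deposited count table, and Nop10 and Imp4 were not analysed here. All 58 passed the filter on low counts and were tested among 10869 genes. RNA-seq was available for 6 libraries of long-term hematopoietic stem cells, the few marrow cells from which all blood can be renewed, sorted as lineage-negative, Sca-1 and c-Kit positive, CD48-negative and CD150-positive cells. The mice were female, 8 weeks old, and all carried 1 floxed allele of Myc, written c-Mycfl/+. The WT group (c-Mycfl/+, libraries 1, 3 and 4) had no Cre, and the HET group (c-Mycfl/+Mx1Cre, libraries 1, 3 and 4) carried Mx1-Cre, in which an interferon-responsive promoter active well beyond stem cells drives the recombinase. Deletion was induced with 3 injections of poly(I:C), a double-stranded RNA analog, at 6 mg/kg. The design text does not state separately whether WT mice received it. Titles call the HET libraries knockouts, but their genotype is heterozygous. Nothing in the labels says that each library is a separate mouse, so p-values measure the spread between libraries, which may in part be technical.

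Ribosomes are assembled in the nucleolus around a long precursor RNA made by RNA polymerase I. Small nucleolar ribonucleoproteins (snoRNPs, complexes of a guide RNA with core proteins) modify the precursor, the small subunit processome folds and cuts the part that becomes the 40S subunit, and a separate series of factors builds the 60S subunit. Many genes of this pathway are known targets of c-MYC, the transcription factor encoded by Myc, and blood stem cells are known for a low rate of protein synthesis.

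Library totals ran from 4249490 counts in WT 4 to 9886223 in HET 1. Two-sided edgeR quasi-likelihood tests compared HET with WT over all genes, and a gene is called where its Benjamini-Hochberg adjusted p is under 0.05. The sort could be checked on transcripts. All 12 markers of stem cells had a row, with Kit between 1091 and 1258 CPM (counts scaled to library size), and 0 were called, 4 being higher and 8 lower in HET. Their mean log2 level relative to WT was -0.29 in HET 1, 0.03 in HET 3 and 0.05 in HET 4, and between -0.075 and 0.11 in WT. Of 6 markers that the sort selects against, Cd3e, Cd8a and Ly6g had no row, and the 3 with a row summed to between 12.8 and 17.3 CPM in WT and to 24.5, 44.1 and 26.1 CPM in HET 1, 3 and 4. All 3, Cd48 (1.67 to 3.25 CPM in WT, 3.67 to 8.96 in HET), Cd4 and Itgam were higher in every HET library than in any WT library, none being called. The part of these markers in the results on ribosome biogenesis was not tested. The targeted gene, Myc, was at 447, 427 and 542 CPM in WT 1, 3 and 4 and at 294, 387 and 372 CPM in HET 1, 3 and 4. Its groups did not overlap. Its log2 fold change was -0.43 ± 0.12 (SE, n = 3 each; edgeR adjusted p = 0.312), and an exact two-sided permutation test gave p = 0.1, the smallest that 3 against 3 libraries allow.

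A single ribosome biogenesis factor, Ppan, fell in HET, to 52.1% of its WT level, and the other 57 were not called. No member rose by edgeR, DESeq2 or limma-voom. The called share was 1 of 58 on the lower side, against 0.221% of all genes tested, and 0 of 58 on the higher side, against 0.0368%. Because earlier results were known when the list was chosen, such shares describe the list and do not test it. At an unadjusted p under 0.05, 5 members were lower (Ppan, Fbl, Nle1, Gar1 and Rrp1b) and 0 higher, where all genes gave 3.19% lower and 2.02% higher. Fold changes of the 58 members were mostly small and mostly below 0. Of them 45 were negative and 13 positive, a negative share of 77.6% against 49.3% of all genes tested, and their median log2 fold change was -0.07 against 0.00 over all genes. The middle 50% of members lay between -0.21 and 0.00, and the lowest value after Ppan was -0.52, for Fbl. In 5 members (Ppan, Fbl, Polr1d, Rrs1 and Wdr36) the groups separated with HET below WT, 8.62% of the members against 5.64% of all genes, and in 0 members they separated with HET above, against 4.69%. CPM are shares of a library's RNA, so a change of total RNA per cell is not seen in them, and in bulk libraries fewer cells with a transcript and less transcript per cell cannot be told apart.

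**Figure D1:**
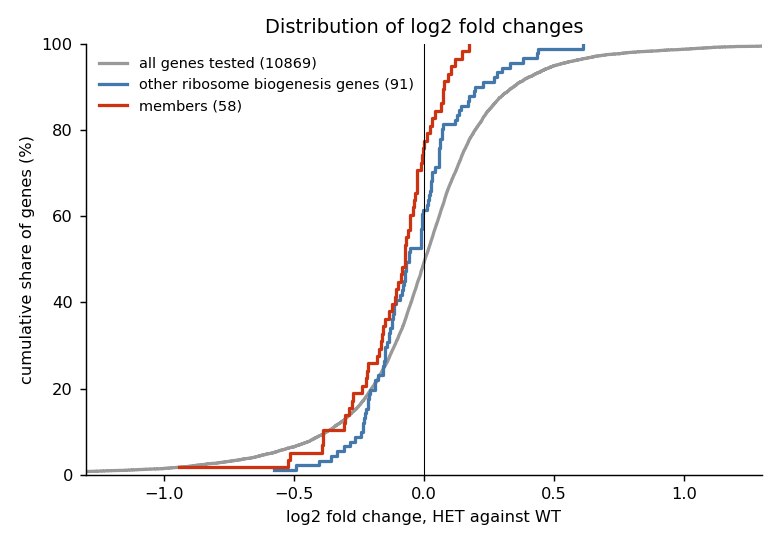
Cumulative share of genes (vertical axis, %) against log2 fold change of HET against WT (horizontal axis) for the 58 members, 91 other ribosome biogenesis genes and 10869 genes tested. The members' line reaches 77.6% at 0 and has Ppan alone near -0.94, and genes beyond the axis limits are not drawn.

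The precision of the measurements sets how small a change could be seen. The median standard error of the members' log2 fold changes was 0.16, against 0.22 over all genes. For 44 of 58 members the 95% interval excluded a fall of 1.5-fold, and for 42 it excluded a change of 1.5-fold in either direction. Over all 10869 genes tested these counts were 7014 and 4895. Without HET 1 they were 32 and 31 of the 58 members. A 2-fold fall was excluded for 56 members, the exceptions being Ppan and Wdr74. Wdr74, a factor of early 60S assembly, was measured least well, averaging 4.80 ± 1.01 CPM in WT against 4.18 ± 0.784 in HET (SD of 3 libraries), with an interval from -1.42 to 0.99.

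**Figure D2:**
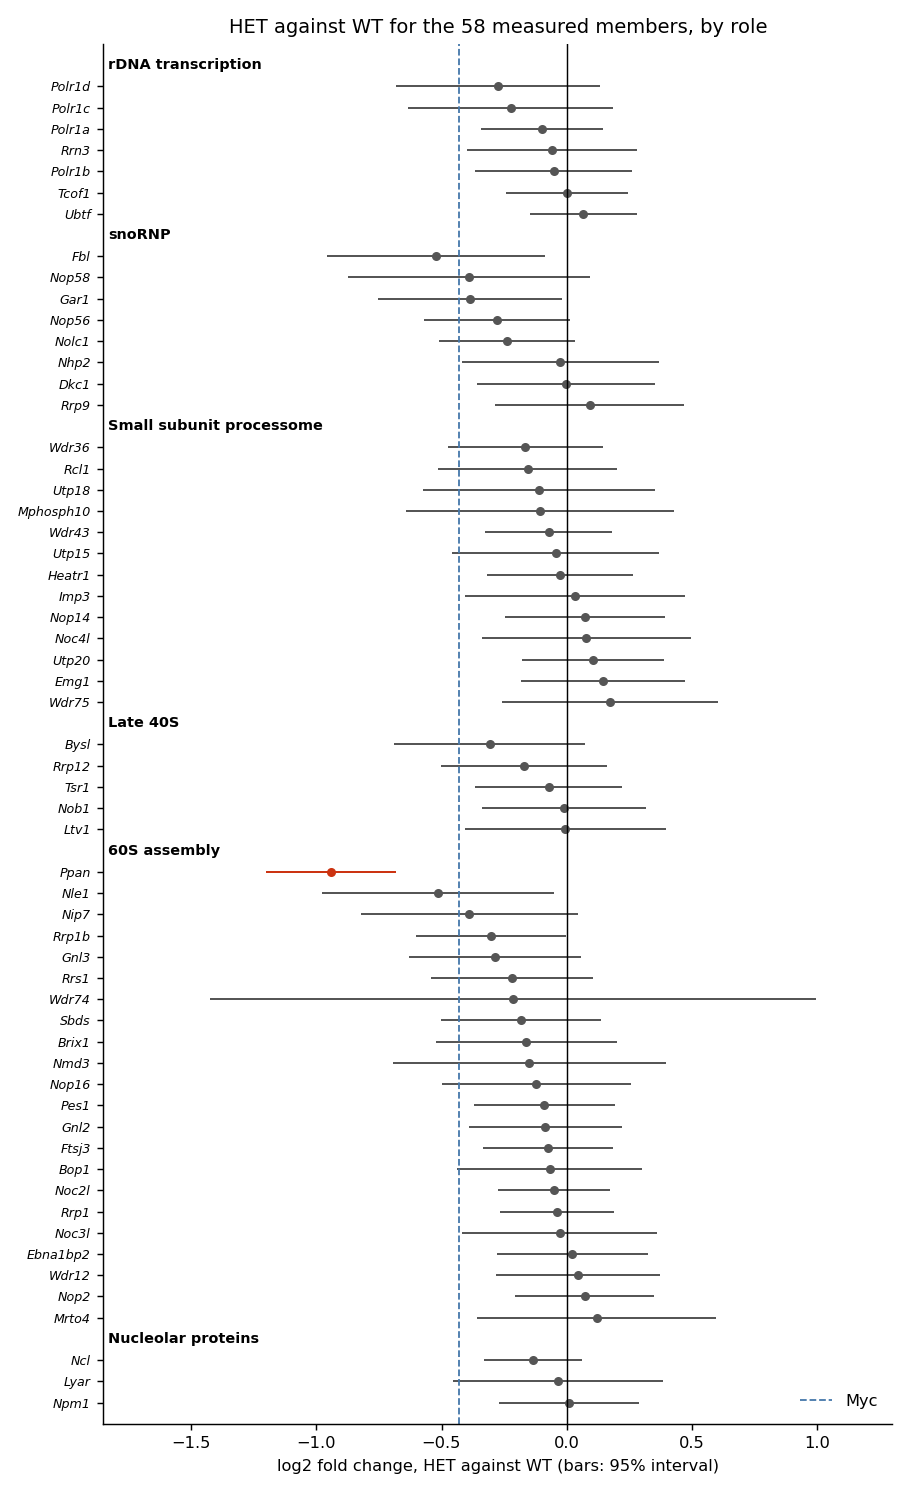
Log2 fold change of HET against WT with its 95% interval for each of the 58 members, grouped by role, with the value of Myc as a dashed line. Ppan (red, -0.94) is the single called gene, and its interval does not reach that of most other members.

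Ppan encodes a nucleolar protein of the Brix-domain family that is needed to process the precursor of the large-subunit RNA. It was at 318, 373 and 379 CPM in WT 1, 3 and 4 and at 211, 181 and 165 CPM in HET 1, 3 and 4. The highest HET library lay far below the lowest WT library. The WT mean was 357 ± 33.7 CPM against 186 ± 23.6 in HET (SD of 3 libraries). The log2 fold change was -0.94 ± 0.12 (SE; 95% interval -1.20 to -0.68; edgeR adjusted p = 5.214e-04). The interval leaves HET at 43.6% to 62.2% of WT, against 62.1% to 88.8% for Myc itself. By unadjusted p, Ppan ranked 4 of 10869 genes and Fbl, the next member, ranked 272. Ppan was also called in each of the 16 alternative analyses, with log2 fold changes between -1.05 and -0.86. Per kilobase of its principal transcript it was one of the most abundant members in WT, at 214 CPM per kilobase, behind Ncl (253) and Rrp1 (239). That transcript has 1670 bases, while the exons of all Ppan transcripts cover 4004, so this rank depends on the length used. In HET it was at 111 CPM per kilobase.

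The Ppan gene (ENSMUSG00000004100) lies on the plus strand of chromosome 9, from 20888175 to 20892178 in GRCm38. The exons of its annotated transcripts together cover the whole gene, including 2 snoRNA genes on the same strand, and overlap no other gene. Whether reads of these snoRNAs were counted with Ppan could not be checked. The promoter window of each member was searched for CACGTG, the canonical E-box to which MYC and its partner MAX bind. The word reads the same on both strands, and windows ran from 250 bases before to 50 after the RefSeq gene start. Ppan has no such word in its window. It was present for 10 of the 49 tested members with a promoter sequence, 20.4%, against 12.2% of 8769 tested genes and 8.09% of all 27025 genes with a sequence. The median log2 fold change was -0.07 for the 10 members with the word, of which 0 were called, and -0.05 for the 39 without it, with Ppan among them. A match of letters is a description of sequence and was not linked to binding here. The sequences before the start of Ppan and of 3 members with the word upstream are shown because they set the called gene beside uncalled genes that have an E-box. They come from RefSeq on GRCm38.p6, are read 5′ to 3′ on the gene's strand and end at the base before the start, and capitals mark the E-box. They span chr9:20887975-20888174 for Ppan, chr6:125131783-125131882 for Nop2, chr11:93885767-93885866 (minus strand) for Utp18 and chr16:13780459-13780698 for Rrn3.
Ppan: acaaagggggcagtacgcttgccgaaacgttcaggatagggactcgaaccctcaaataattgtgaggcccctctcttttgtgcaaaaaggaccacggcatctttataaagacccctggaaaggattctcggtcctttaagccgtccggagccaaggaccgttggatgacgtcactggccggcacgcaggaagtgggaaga
Nop2: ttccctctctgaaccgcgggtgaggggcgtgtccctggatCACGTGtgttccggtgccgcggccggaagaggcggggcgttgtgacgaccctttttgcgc
Utp18: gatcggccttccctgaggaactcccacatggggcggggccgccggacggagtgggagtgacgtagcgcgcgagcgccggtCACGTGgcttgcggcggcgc
Rrn3: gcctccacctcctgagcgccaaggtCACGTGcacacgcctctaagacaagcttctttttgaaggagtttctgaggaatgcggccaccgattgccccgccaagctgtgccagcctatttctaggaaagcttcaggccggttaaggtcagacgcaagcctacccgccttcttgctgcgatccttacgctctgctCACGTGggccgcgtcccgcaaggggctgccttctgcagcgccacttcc

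The E-box begins 60 bases before the start of Nop2, 20 before that of Utp18, and 215 and 48 before that of Rrn3. Log2 fold changes of these genes were 0.07 for Nop2, -0.11 for Utp18 and -0.06 for Rrn3. In Nle1 it begins 23 bases after the start.

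As a set, the genes of ribosomal DNA transcription were near their WT level, and for 5 of 7 the 95% interval excluded a 1.5-fold fall. Of 7 members 0 were called, and the median was -0.06. In the main fit 6 of the 7 fold changes were negative (5 with upper quartile scaling, for example, where Tcof1 was just above 0). Polr1a, which encodes the largest subunit of RNA polymerase I, was at 232, 241 and 231 CPM in WT 1, 3 and 4 and at 219, 236 and 203 CPM in HET 1, 3 and 4. The groups overlapped through HET 3, and the log2 fold change was -0.10 ± 0.11 (SE, edgeR adjusted p = 0.995). Ubtf encodes UBF, which keeps ribosomal DNA open for transcription, and was the most abundant gene of this group per kilobase of transcript (96.9 CPM per kilobase in WT). It was at 454, 450 and 459 CPM in WT 1, 3 and 4 and at 495, 452 and 481 CPM in HET 1, 3 and 4, and HET 3 lay within the WT range. Its log2 fold change was 0.07, and its 95% interval, -0.14 to 0.28, was the narrowest of the 7.

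Polr1c and Polr1d encode a pair of subunits that RNA polymerase I shares with RNA polymerase III. Polr1d was at 46.9, 61.8 and 45.8 CPM in WT 1, 3 and 4 and at 42.0, 44.7 and 41.3 CPM in HET 1, 3 and 4. Its groups did not overlap, but WT 4 and HET 3 were close and the gene was not called (log2 fold change -0.27 ± 0.19 SE, edgeR adjusted p = 0.995). Polr1c was at 42.4, 56.5 and 48.2 CPM in WT 1, 3 and 4 and at 46.3, 39.9 and 39.4 CPM in HET 1, 3 and 4. HET 1 lay inside the WT range (log2 fold change -0.22 ± 0.19 SE, edgeR adjusted p = 0.995). The 95% intervals of Polr1c and Polr1d reached down to 64.6% and 62.6% of WT, so a 1.5-fold fall was not excluded for either. The remaining members of this group were Polr1b, which encodes the second-largest subunit (-0.05), Rrn3, the initiation factor TIF-IA (-0.06), and Tcof1, the nucleolar protein treacle (0.00, averaging 362 ± 35.7 CPM in WT against 361 ± 35.3 in HET, SD of 3 libraries).

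The snoRNP genes had the lowest median of the 6 role groups, -0.26 over 8 genes, with 0 called. In the main fit 7 values were negative (6 with upper quartile scaling, for example, by Dkc1). Fbl encodes fibrillarin, the methyltransferase of box C/D snoRNPs. It was at 43.1, 42.6 and 53.7 CPM in WT 1, 3 and 4 and at 28.1, 35.3 and 33.9 CPM in HET 1, 3 and 4. All HET libraries lay below all WT libraries, with a log2 fold change of -0.52 ± 0.21 (SE), an unadjusted p of 0.0198 and an edgeR adjusted p of 0.792. Gar1, which encodes a core protein of box H/ACA snoRNPs, was at 69.8, 75.7 and 84.9 CPM in WT 1, 3 and 4 and at 69.8, 49.7 and 55.7 CPM in HET 1, 3 and 4. HET 1 equalled the lowest WT library to 3 digits, and the other two HET libraries were below it (log2 fold change -0.39 ± 0.17 SE, edgeR adjusted p = 0.926).

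Nop56 and Nop58 encode the paired core proteins that hold fibrillarin on box C/D RNAs. Nop56 was at 251, 218 and 243 CPM in WT 1, 3 and 4 and at 243, 174 and 168 CPM in HET 1, 3 and 4. Nop58 was at 242, 209 and 203 CPM in WT 1, 3 and 4 and at 233, 121 and 142 CPM in HET 1, 3 and 4. In both genes HET 1 lay within the WT range and HET 3 and HET 4 lay below it. Neither was called with all libraries, with log2 fold changes of -0.28 ± 0.14 and -0.39 ± 0.21 (SE) and edgeR adjusted p of 0.951 and 0.980. Without HET 1, Nop58 was called, at -0.73 ± 0.13 (SE, edgeR adjusted p = 0.00353), and Nop56 had -0.47 (adjusted p = 0.0883). Leaving out HET 3 or HET 4 instead gave -0.21 and -0.29 for Nop58 and -0.20 and -0.18 for Nop56, none called.

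Nolc1, which encodes a chaperone of snoRNPs also called Nopp140, was split in the same way between its HET libraries. It was at 325, 385 and 324 CPM in WT 1, 3 and 4 and at 345, 286 and 244 CPM in HET 1, 3 and 4. Only HET 1 lay inside the WT range (log2 fold change -0.24 ± 0.13 SE, edgeR adjusted p = 0.969). Dkc1, the pseudouridine synthase dyskerin, had a log2 fold change of 0.00 ± 0.17 and its partner Nhp2 one of -0.03 ± 0.19 (SE). Rrp9, a protein of the U3 snoRNP, was the only positive value among these genes, at 0.09 ± 0.18 (SE).

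**Figure D3:**
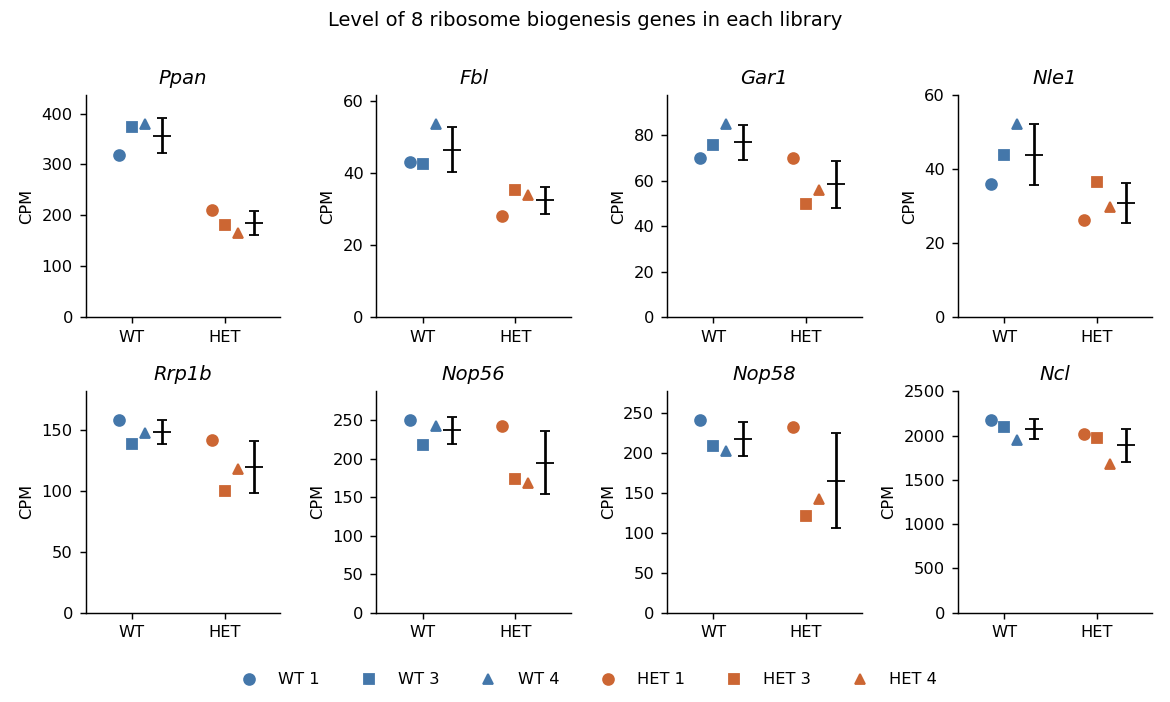
CPM (vertical axes, from 0) of 8 members in each library, with the mean and SD (n = 3) of each group as a bar. Ppan separates the groups widely, Fbl separates them narrowly, and in Gar1, Nop56 and Nop58 the HET 1 library lies at WT values.

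The small subunit processome genes were divided between both sides of 0 with all libraries. Of 13 measured members 0 were called, 7 fold changes were negative and 6 positive, and the median was -0.03. Without HET 1, 10 were negative, 0 were called and the median was -0.15. Wdr36 encodes a WD-repeat protein of the UTP-B module and had the smallest p of the group. It was at 92.4, 96.6 and 92.5 CPM in WT 1, 3 and 4 and at 91.4, 83.7 and 75.6 CPM in HET 1, 3 and 4. Its groups did not overlap, although WT 1 and HET 1 differed by little (log2 fold change -0.16 ± 0.15 SE, edgeR adjusted p = 0.995). Emg1, which encodes a methyltransferase of the small-subunit RNA and was the most abundant gene of this group per kilobase of transcript (76.6 CPM per kilobase in WT), was at 73.2, 78.1 and 86.1 CPM in WT 1, 3 and 4. It was at 97.0, 88.5 and 76.4 CPM in HET 1, 3 and 4, and HET 4 lay within the WT range.

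Wdr75, a protein of the UTP-A module that couples the processome to transcription, had the highest fold change of all 58 members, 0.17 ± 0.20 (SE, edgeR adjusted p = 0.995). It was at 47.4, 45.0 and 37.0 CPM in WT 1, 3 and 4 and at 58.3, 48.8 and 38.4 CPM in HET 1, 3 and 4, so the groups overlapped. Rcl1 was at 70.0, 67.5 and 85.1 CPM in WT 1, 3 and 4 and at 75.7, 65.4 and 57.9 CPM in HET 1, 3 and 4. HET 1 lay within the WT range, and the log2 fold change was -0.16 ± 0.17 (SE). Among the rest of the group, Utp18 of the UTP-B module had log2 -0.11, Wdr43 and Utp15 of the UTP-A module -0.07 and -0.04, and Heatr1, also of that module, -0.03. Mphosph10 and its partner Imp3 had -0.11 and 0.03, the partners Nop14 and Noc4l 0.07 and 0.08, and the large scaffold protein Utp20 0.10. These genes had standard errors between 0.12 and 0.25.

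Factors of late 40S maturation all had negative fold changes in the main fit, but none was called and the median of the 5 was -0.07. Signs near 0 depended on the setting. Ltv1 was just above 0 with upper quartile scaling. Nob1 was above 0 with limma-voom (0.00061), with HET 1 thinned (0.0031), with trends removed (0.011) and without some single libraries. Bysl, which encodes bystin, was at 76.9, 71.2 and 63.7 CPM in WT 1, 3 and 4 and at 64.7, 44.3 and 61.6 CPM in HET 1, 3 and 4. HET 1 lay just above WT 4, so the groups overlapped (log2 fold change -0.31 ± 0.18 SE, edgeR adjusted p = 0.980). Rrp12, a factor of pre-ribosome export, was at 86.4, 107 and 116 CPM in WT 1, 3 and 4 and at 97.1, 76.3 and 101 CPM in HET 1, 3 and 4, with 2 HET libraries inside the WT range. Nob1, the endonuclease that makes the final cut of the small-subunit RNA, was at 69.1, 74.3 and 74.2 CPM in WT 1, 3 and 4 and at 75.1, 67.8 and 72.7 CPM in HET 1, 3 and 4. Its log2 fold change was -0.01 (95% interval -0.34 to 0.31). Tsr1, a GTPase-like factor of the pre-40S particle, had -0.07 and Ltv1, which is removed before the last maturation steps, -0.01.

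Of 22 members that act in 60S assembly, 1 fell (Ppan), 0 rose and 21 were not called. Without Ppan the remaining 21 had a median of -0.09, with 17 negative values. Nle1 encodes Notchless, which acts with the remodelling enzyme Mdn1 on the pre-60S particle and is known to be needed for the maintenance of mouse blood stem cells. It was at 35.9, 43.7 and 52.2 CPM in WT 1, 3 and 4 and at 26.2, 36.6 and 29.8 CPM in HET 1, 3 and 4. HET 3 lay just above WT 1, so the groups overlapped, and the log2 fold change of -0.51 ± 0.22 (SE) was not called (unadjusted p = 0.0301, edgeR adjusted p = 0.844). Rrp1b, a nucleolar partner of a protein phosphatase, was at 158, 139 and 147 CPM in WT 1, 3 and 4 and at 142, 99.4 and 118 CPM in HET 1, 3 and 4. Here HET 1 lay inside the WT range (log2 fold change -0.30 ± 0.14 SE, unadjusted p = 0.0441, edgeR adjusted p = 0.950).

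Rrp1, a paralog of Rrp1b, was the most abundant gene of 60S assembly per kilobase of transcript (239 CPM per kilobase in WT). It was at 436, 525 and 464 CPM in WT 1, 3 and 4 and at 462, 495 and 430.1 CPM in HET 1, 3 and 4. HET 4 lay just below the WT range and the other HET libraries within it, with a log2 fold change of -0.04 and a 95% interval of -0.26 to 0.19. Rrs1, which brings the small RNA of the large subunit into the particle, was at 77.2, 84.7 and 84.7 CPM in WT 1, 3 and 4 and at 75.1, 68.3 and 68.4 CPM in HET 1, 3 and 4. Its groups did not overlap, and its log2 fold change was -0.22 ± 0.15 (SE, edgeR adjusted p = 0.995).

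The 3 proteins of the PeBoW complex, which is required for cell growth and large-subunit RNA processing, were near their WT level: log2 fold changes were -0.09 for Pes1, -0.07 for Bop1 and 0.04 for Wdr12, with standard errors between 0.13 and 0.18. The nucleolar GTPases Gnl3 (nucleostemin) and Gnl2 had -0.29 ± 0.16 and -0.09 ± 0.14 (SE). Gnl3 was at 154, 117 and 127 CPM in WT 1, 3 and 4 and at 136, 86.1 and 102 CPM in HET 1, 3 and 4, again with HET 1 inside the WT range. Factors of export and final release had -0.15 for Nmd3, the export adaptor, and -0.18 for Sbds, the gene mutated in Shwachman-Diamond syndrome.

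The other members of 60S assembly were spread on both sides of 0. Nip7 had the lowest value of these, -0.39 ± 0.21 (SE, edgeR adjusted p = 0.958), averaging 54.2 ± 10.6 CPM in WT against 41.7 ± 7.18 in HET (SD of 3 libraries). Brix1, which shares its domain with Ppan, had -0.16 ± 0.17 (SE). Values were -0.12 for Nop16, -0.07 for the methyltransferase Ftsj3, -0.05 for Noc2l and -0.03 for Noc3l. They were 0.02 for Ebna1bp2, 0.07 for Nop2, another methyltransferase of ribosomal RNA, and 0.12 for Mrto4, a placeholder for a stalk protein. Noc2l averaged 508 ± 36.2 CPM in WT against 490 ± 40.3 in HET (SD of 3 libraries), and its interval of -0.27 to 0.17 was among the narrowest.

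Of the multifunctional nucleolar proteins, 0 of 3 were called. Ncl, which encodes nucleolin, was the most abundant member on both scales. It was at 2179, 2093 and 1947 CPM in WT 1, 3 and 4 and at 2016, 1973 and 1677 CPM in HET 1, 3 and 4. HET 1 and HET 3 lay within the WT range and HET 4 below it (log2 fold change -0.13 ± 0.09 SE, edgeR adjusted p = 0.995). Npm1, the gene of nucleophosmin, which is often mutated in leukemia, had 0.01 ± 0.13 (SE), averaging 243 ± 22.5 CPM in WT against 245 ± 45.0 in HET (SD of 3 libraries). Npm1 has processed pseudogenes, so its level is uncertain where their reads were split. Lyar was at 74.1, 93.9 and 54.4 CPM in WT 1, 3 and 4 and at 84.0, 76.3 and 56.7 CPM in HET 1, 3 and 4, fully within the WT range.

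The HET libraries differed among themselves on these genes. HET 1 was the highest of the 3 HET libraries in 42 of 58 members, 72.4%, against 35.1% of all genes tested. HET 3 and HET 4 lay below all WT libraries in 27 and 34 members (46.6% and 58.6%, against 26.8% and 25.7% of all genes), and HET 1 did so in 10 (17.2%, against 25.8%). As a mean log2 level over the 58 members relative to the WT mean, HET 1, 3 and 4 stood at 0.03, -0.19 and -0.21, and WT 1, 3 and 4 at 0.01, 0.04 and -0.05. The snoRNP genes stood at 0.03, -0.36 and -0.39 in HET 1, 3 and 4, and small subunit processome genes stood at 0.22, -0.15 and -0.12. The 60S assembly genes stood at -0.09, -0.20 and -0.21, with all HET libraries below all WT libraries. Without Ppan they stood at -0.06, -0.17 and -0.16, and HET 1 was nearly level with WT 4 (-0.05).

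**Figure D4:**
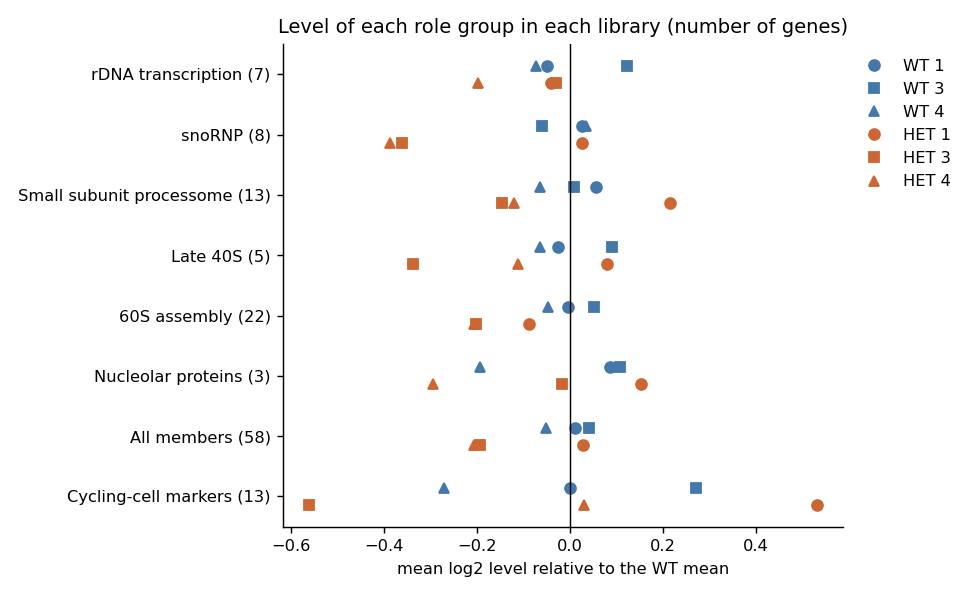
Mean log2 level of each role group, of all 58 members and of 13 cycling-cell markers in each library, relative to the WT mean. HET 3 and HET 4 lie below the WT libraries for snoRNP genes (-0.36 and -0.39), while HET 1 lies among them (0.03).

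Without HET 1 the members' median log2 fold change was -0.17, against 0.00 over all genes in that analysis, and 50 of 58 values were negative. In that fit 2 members fell, Ppan and Nop58, against 0.471% of all genes. On the lower side 9 had an unadjusted p under 0.05, against 4.83%. Fbl and Nle1, whose lowest HET library was HET 1, moved from -0.52 and -0.51 to -0.42 and -0.40. Their edgeR unadjusted p without HET 1 were 0.0741 and 0.106. In 17 members both HET libraries lay below all WT libraries, 29.3% against 12.3% of all genes. Without HET 4 the median was -0.04. HET 1 was the deepest library and also stood apart in marker genes. Its stem cell markers were low as a set, at a mean log2 level of -0.29 against -0.075 to 0.11 in the other 5 libraries. Fgd5 was at 119 CPM in HET 1 against 176 to 248 CPM in WT. Kit (1177 CPM against 1091 to 1229 in WT), Meis1 (625 against 561 to 629) and Ly6a (30.85 against 21.8 to 34.6) lay within the WT range. The other stem cell markers lay below it in HET 1. The 13 markers of cycling cells all had a row, none at 0, with 8 higher and 5 lower in HET and 0 called. They summed to 2973 CPM in HET 1, 1555 in HET 3 and 1948 in HET 4, and to 2064, 2249 and 1806 CPM in WT 1, 3 and 4. Their mean log2 level relative to WT was 0.53, -0.56 and 0.03 in HET 1, 3 and 4. In WT 1, 3 and 4 it was 0.00, 0.27 and -0.27, so HET 1 was the highest library and HET 3 the lowest. The 7 megakaryocyte markers with a row (of 8, Gp6 having none) were all higher in HET, none at 0 and 0 called. They summed to 1109, 909 and 943 CPM in HET 1, 3 and 4 and to between 761 and 783 CPM in WT. Itga2b and Vwf made up most of these sums, and Itga2b alone of the 7 separated the groups. The mean log2 level of the markers was 0.92, 0.18 and 0.41 in HET 1, 3 and 4. It was 0.27, 0.04 and -0.31 in WT 1, 3 and 4, so the groups overlapped. The part of these markers in the members' levels was not tested. With the counts of HET 1 thinned to the depth of the rest, the members' median was again -0.07.

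Some members carry snoRNA genes inside their own transcription unit. The list was chosen with earlier results known, so this split describes the members and does not test them. By the annotation there were 8 such members: Nop56 (5 snoRNAs), Nop58 (4), Wdr43, Gnl3 and Ncl (3 each), Tsr1 and Ppan (2 each) and Dkc1 (1). They include Ppan, the called gene, and Nop56 and Nop58 of the snoRNP genes described above. All 8 had negative fold changes, from -0.94 for Ppan to -0.0031 for Dkc1, with a median of -0.21. Dkc1 was just above 0 with upper quartile scaling, for example. The 50 members without a snoRNA inside had a median of -0.06 with 37 negative values. Apart from Ppan, none was called. The mean log2 level of the 8 relative to WT was 0.00, -0.47 and -0.41 in HET 1, 3 and 4, and that of the 50 was 0.03, -0.15 and -0.18. Exons of 21 members overlap those of another gene, snoRNAs aside, and no source used here says whether counting used strand. The median log2 fold change was -0.07 both for these 21 members and for the 37 without an overlap.

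Of 102 further genes of the pathway that are not members, 91 were tested and 0 were called in either direction by edgeR, DESeq2 or limma-voom. An unadjusted p under 0.05 was reached in edgeR by 3 on the lower and 1 on the higher side. Their median log2 fold change was -0.06, with 56 negative and 35 positive values. The groups separated with HET below WT in 5 of the 91 and with HET above in 5, or 5.49% each, against 5.64% and 4.69% of all genes tested. The smallest p was that of Nop53 (listed as Gltscr2), a factor of 60S assembly, at 660.3, 523 and 543 CPM in WT 1, 3 and 4 and at 478, 385 and 444 CPM in HET 1, 3 and 4. Its groups did not overlap (log2 fold change -0.40 ± 0.12 SE, edgeR adjusted p = 0.309). Nifk, a nucleolar partner of the Ki-67 protein, was at 108, 113 and 119 CPM in WT 1, 3 and 4 and at 91.9, 80.7 and 93.0 CPM in HET 1, 3 and 4, likewise without overlap (-0.36 ± 0.14 SE, edgeR adjusted p = 0.778). Bud23 (listed as Wbscr22), a methyltransferase of the small-subunit RNA, was at 55.4, 59.3 and 56.8 CPM in WT 1, 3 and 4 and at 52.8, 38.8 and 29.6 CPM in HET 1, 3 and 4 (-0.49 ± 0.21 SE, edgeR adjusted p = 0.844). Its HET libraries also lay below all WT libraries. The mean level of the 91 genes was 0.03, -0.10 and -0.07 in HET 1, 3 and 4, so HET 1 was highest there too. On the higher side the smallest p was that of Ddx52, an RNA helicase, at 46.5, 38.2 and 36.0 CPM in WT 1, 3 and 4 and at 51.6, 46.5 and 66.1 CPM in HET 1, 3 and 4, with HET 3 just inside the WT range (log2 fold change 0.44 ± 0.20 SE, edgeR adjusted p = 0.928).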

How the data were processed

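The authors deposited whole-number read counts per gene for 6 libraries. FastQC, STAR 2.5.2b, edgeR, limma and mm10 appear in the submitters' processing notes with no role. The counter, annotation and strand setting were not given in sources used here. The protocol fields, which belong to another study, were left aside. Groups follow the genotype label and library numbers the titles.

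The tests were run in R 4.3.3 with edgeR 4.0.16. The filterByExpr filter left 10869 of 11779 genes. TMM scaling, robust dispersions and a two-sided quasi-likelihood test of HET against WT with no other term were used, with Benjamini-Hochberg adjustment over all genes tested. CPM use the TMM-scaled total. Library levels are means of log2 CPM with a prior count of 2. Standard errors come from the F statistic. Levels per kilobase use the longest APPRIS principal transcript of GENCODE M21 (GRCm38, which mm10 also names). Ranks per kilobase depend on that choice of length. Promoters came from RefSeq. Promoter sequence was found for 49 of the tested members. Separately, the count rows of 7 further pathway genes were found under an older symbol.

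The members, role groups and lists were chosen with earlier results of these data known. Values in every library are given for Myc, for members under an unadjusted p of 0.05, for the 3 members of smallest p per role (2 in roles of under 6 members), for the most abundant member per role and for the highest and lowest fold changes. The library values of Nolc1, Gnl3 and Rrs1, and Ddx52 among further genes, were added after they were seen. Alternatives were other scalings, filters and tools (DESeq2 1.42.0, limma-voom from limma 3.58.1), a replicate block, thinning of HET 1, removal of length and GC trends (splines with 4 degrees of freedom) and leaving out each library. Scripts were tested on simulated counts. Some marker genes are not reported here.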

Additional observations from a re-analysis of the deposited data

How the results depend on the processing

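Ppan was called in all 16 alternatives, with the highest adjusted p (0.0185) without HET 4. Leaving out 1 library gave 1 to 2 members called lower, the second being Nop58 without HET 1, and 0 called higher. Members without overlap on the lower side numbered 5 to 17 in these fits. They numbered 4 to 7 with other scalings, filters, thinning or trend removal, and 0 to 4 on the higher side. Groups of 2 against 3 separate more easily over all genes too. Without HET 1, which gave the 17, the lower share was 29.3% of members against 12.3% of all genes. The higher share was 0 of 58 members against 11.8% of all genes. The share over all genes is not given for the other fits, so their counts describe the members alone. The members' median lay between -0.17 and -0.04 when 1 library was left out, lowest without HET 1, and was -0.13 with library weights in limma-voom. Negative fold changes numbered 34 (without HET 4) to 50 (without HET 1) of 58 when 1 library was left out and 40 to 48 in the other alternatives. Of 336 refits of 21 named members, 325 kept direction and side of the threshold, 1 (Nop58) became called, and 10 changed sign in 3 uncalled genes near 0. Nob1 was at 0.00061 with limma-voom, 0.0031 with HET 1 thinned, 0.011 after removal of the trends and between -0.047 and 0.029 when 1 library was left out. Rrp1 then ranged from -0.099 to 0.039, positive without WT 3 (0.039) or HET 4 (0.016), and Lyar from -0.21 to 0.17, positive without the same libraries (0.17 and 0.12). The cause was not tested. Myc stayed uncalled, between -0.50 and -0.32.

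The labels do not say whether library numbers pair the groups, and correlations between libraries were too weak to decide it. The correlation of deviations from the group means was 0.112, -0.044 and 0.072 for numbers 1, 3 and 4. HET 1 and HET 4 correlated best with the WT library of their own number, and HET 3 did not. With the replicate block, Ppan was at -0.94 and 1 member was called, while calls over all genes went from 28 to 49. Members with an unadjusted edgeR p under 0.05 on the lower side went from 5 to 8. Nop58 was then at -0.45 ± 0.14 (SE, edgeR unadjusted p = 0.00489, adjusted p = 0.377). Depth limits Wdr74, whose interval spans a 2-fold fall.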
